A study of Mus musculus with 38 samples.

Results

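LAP2B and LMNB1 CUT&RUN were compared in wild-type (WT) epiblast-like cells (EpiLCs), using 6 of the 38 samples of the series: the 3 WT EpiLC libraries labelled LAP2B and the 3 labelled LMNB1. The libraries were chosen by antibody, genotype and stage alone, and each was read over 78202 genes and over 1241 families of transposable elements (TEs). The question was where LAP2B signal lies outside the genes that are rich in LMNB1. The study used mouse embryonic stem cells, wild type or lacking LBR, lamins or both, in the naive state and after primed differentiation. Naive WT cells were kept in medium with 2i and LIF, and WT EpiLCs were made from them with FGF and Activin A. The cells compared here were of the wild-type genotype, and the WT line was karyotypically mixed, with some cells lacking chromosome Y and some also carrying an additional copy of chromosomes 6 and 8. The same antibodies in WT naive cells, 3 libraries each, were used for a comparison of stages, and 3 libraries per stage labelled IGG, which were made with a rabbit anti-mouse secondary antibody, served as the background.

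LAP2β, a product of the Tmpo gene, is a LEM domain protein of the inner nuclear membrane, where it binds lamins and the chromatin protein BAF. LMNB1 is lamin B1, a filament protein of the nuclear lamina that stays anchored to the inner nuclear membrane. Genomic regions that touch the lamina are known as lamina-associated domains. They are typically AT-rich, gene-poor and rich in L1 elements, and they hold clusters of silent receptor genes and very long neuronal genes, whereas regions of the interior are rich in GC, SINE elements and housekeeping genes. In CUT&RUN an antibody directs micrococcal nuclease to a protein in intact cells, and the released DNA is sequenced, so signal marks DNA near that protein and not RNA or protein amounts.

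Each library was divided by its own median gene (or median TE family), so a value of 1 is the median gene, and "higher" or "lower" below refers to a place within the distribution of a library, never to the absolute amount of LAP2B or LMNB1 bound. Gene values sum over the 1-kb bins that a gene touches, and comparisons between genes of different length were made per bin. The 6 libraries held 18713692 to 33979106 recovered reads over genes, and replicates differed by more than counting noise in all groups, with chi-square per degree of freedom of 3.74 to 12.6. CUT&RUN reads DNA, so expression markers could not check the EpiLC label. The labels give 3 replicates per group but do not say that they came from separate cultures, and p-values then measure only the spread between libraries, which may be technical. LMNB1 and LAP2B were each profiled with 1 antibody and deposited as separate tables, so the protein and anything else that came with its antibody cannot be told apart. The IGG control was run in parallel with LAP2B, and no background paired with LMNB1 was used here. The methods of the study name the LAP2B antibody as LAP2, and the study characterised it as recognising mainly LAP2β.

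Over classes of genes made from LMNB1, LAP2B signal in EpiLCs rose towards the LMNB1-rich genes and lay between LMNB1 and IGG. The classes come from the antibody that LAP2B is compared with. With classes made from LAP2B in the same way, an alternative added after the values were seen, the LAP2B and LMNB1 libraries overlapped. The lamina contrast was defined as the log2 ratio of the mean value per bin in the most LMNB1-rich of 4 equal classes of genes to that in the most LMNB1-poor class, with classes always taken from LMNB1 libraries other than the one scored. It was 1.43, 1.12 and 1.22 in the LAP2B EpiLC replicates 1, 2 and 3. It was 1.54, 1.83 and 1.68 in the LMNB1 replicates and 0.70, 0.60 and 0.65 in IGG. All LAP2B libraries lay below all LMNB1 libraries and above all IGG libraries, with LAP2B replicate 1 nearest to LMNB1. The means were 1.26 ± 0.16 for LAP2B and 1.68 ± 0.14 for LMNB1 (SD, n = 3 each), a difference of -0.43 (exact permutation test, two-sided, p = 0.1). This is the smallest p that 3 against 3 libraries allow, and it was 0.1 after Benjamini-Hochberg adjustment over 3 such measures.

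The share of signal per bin in the LMNB1-poor genes, the lower 2 of the 4 classes, was 36.1%, 39.7% and 38.7% in the LAP2B libraries. It was 34.7%, 31.6% and 33.3% in the LMNB1 libraries and 44.6%, 45.4% and 45.0% in IGG. On these LMNB1 classes no LAP2B library overlapped either other antibody. The mean shares were 38.2% ± 1.86 and 33.2% ± 1.58 (SD, n = 3 each), and the difference of 4.97 percentage points had an exact permutation p of 0.1 (two-sided, adjusted 0.1). Spearman's rho across genes with LMNB1 was 0.715, 0.599 and 0.569 for LAP2B, against 0.795, 0.814 and 0.813 for LMNB1 scored with the other LMNB1 libraries. Libraries and not genes were the replicates in this test, and the difference in rho of -0.18 again had an exact permutation p of 0.1 (two-sided, adjusted 0.1).

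With LAP2B libraries giving the classes and the reference, the contrast was 1.34, 1.24 and 1.37 in LAP2B and 1.33, 1.42 and 1.47 in LMNB1. The difference of means was -0.09 (exact permutation test, two-sided, p = 0.3). The share in the lower 2 classes was 37.6% ± 0.85 and 36.3% ± 0.83 (SD, n = 3 each), a difference of 1.36 percentage points (exact permutation test, two-sided, p = 0.2). The rank correlation across genes with LAP2B (Spearman's rho) was 0.653, 0.679 and 0.661 in LAP2B and 0.658, 0.611 and 0.692 in LMNB1 (difference of means 0.01, exact permutation test, two-sided, p = 0.8). IGG had a contrast of 1.31, 1.07 and 1.08 and a rho of 0.5, 0.452 and 0.507. LAP2B and LMNB1 libraries overlapped in all 3 measures, LAP2B and IGG libraries overlapped in contrast and share, and the difference in rho had the opposite sign to that with LMNB1 as the reference. The separation of LAP2B from LMNB1 thus held with LMNB1 as the reference and not with LAP2B, and these measures do not show that LAP2B was spread more widely than LMNB1. The study compared tracks and domains instead. Set against lamin B1, it reported LAP2β signal in WT EpiLCs both inside and outside lamina-associated domains. It therefore did not use LAP2β to mark these domains in mutant EpiLCs.

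Of the genes with the highest LAP2B values per bin, as many as 1 of the 4 classes holds, 12.5%, 20.1% and 22.1% lay in the LMNB1-poor classes in the 3 libraries. The corresponding share was 6.22% ± 1.02 for LMNB1 libraries and 43.0% ± 0.61 for IGG (SD, n = 3 each). In the most LMNB1-rich class lay 55.5% ± 7.12 of the top LAP2B genes, 73.5% ± 0.73 of the top LMNB1 genes and 27.1% ± 0.47 of the top IGG genes. These shares use the LMNB1 classes, which score LMNB1 libraries by their own antibody, and are not given here for LAP2B classes. They therefore do not show a wider spread of LAP2B. The plot of genome-wide measures shows lamina contrast, share and rho by library in both stages.

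**Figure D1:**
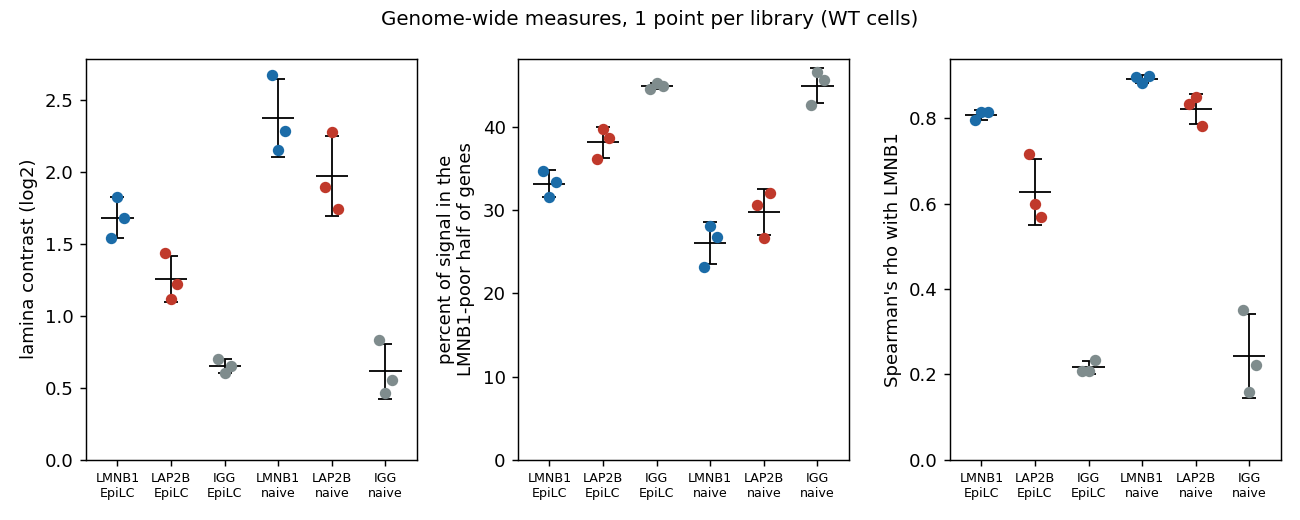
Lamina contrast (log2), percent of signal in LMNB1-poor genes and Spearman's rho with LMNB1, 1 point per WT library with mean and SD by antibody and stage. In EpiLCs the LAP2B libraries (contrast 1.12 to 1.43) sit below the LMNB1 libraries (1.54 to 1.83) and above IGG (0.60 to 0.70).

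By exact permutation, the gap between LAP2B and LMNB1 on LMNB1 classes was not distinguishable between EpiLCs and naive cells. In naive WT cells the lamina contrast was 1.89, 2.28 and 1.74 for LAP2B and 2.68, 2.15 and 2.29 for LMNB1. The naive groups overlapped in contrast, with LAP2B replicate 2 above LMNB1 replicate 2. Their means were 1.97 ± 0.28 and 2.37 ± 0.27 (SD, n = 3 each), and the difference of -0.40 had an exact permutation p of 0.2 (two-sided). In rho with LMNB1 the naive groups did not overlap, with 0.833, 0.850 and 0.782 in LAP2B and 0.896, 0.882 and 0.900 in LMNB1. The difference in rho of -0.07 had an exact permutation p of 0.1 (two-sided). The EpiLC gap minus the naive gap was -0.02 in contrast, 1.21 percentage points in share and -0.11 in rho. Exact permutation of the stage labels within each antibody (400 assignments, two-sided) gave p = 0.955, 0.835 and 0.325, each 0.955 after adjustment over the 3. The permuted values hold the shift of both antibodies between stages, which widens the spread under permutation. These p-values therefore cannot show that the gaps were alike. The sign of the contrast difference turned with 1 library: it was 0.05 without LAP2B EpiLC replicate 2, 0.12 without LMNB1 EpiLC replicate 2, 0.13 without LAP2B naive replicate 2 and 0.07 without LMNB1 naive replicate 2, and it was 0.02 when values were not divided by bins. Both antibodies had a lower contrast in EpiLCs than in naive cells, while IGG stood at 0.65 ± 0.05 and 0.62 ± 0.19 (SD, n = 3 each).

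Genes were next placed in 4 classes by LMNB1 in naive WT cells, which shares no library with the EpiLC values but is of the same antibody as one of the groups compared. In the most LMNB1-poor class the median value per bin was 0.774, 0.894 and 0.879 in LAP2B, 0.745, 0.646 and 0.693 in LMNB1, and 1.16, 1.1 and 1.08 in IGG. LAP2B was thus above LMNB1 and below IGG in every library. In the most LMNB1-rich class the order was turned, with 1.38, 1.19 and 1.22 in LAP2B, 1.51, 1.81 and 1.57 in LMNB1, and 0.911, 0.947 and 0.936 in IGG. IGG thus fell in these medians, while its lamina contrast, made from means over EpiLC classes, was positive. The plot across 20 finer classes shows the curves of the 3 antibodies crossing near the middle, close to a value of 1. Each library was divided by its own median, which draws all curves to about 1 there, so the crossing is no independent result. A curve flatter than LMNB1 then lies higher at the LMNB1-poor end and lower at the LMNB1-rich end.

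**Figure D2:**
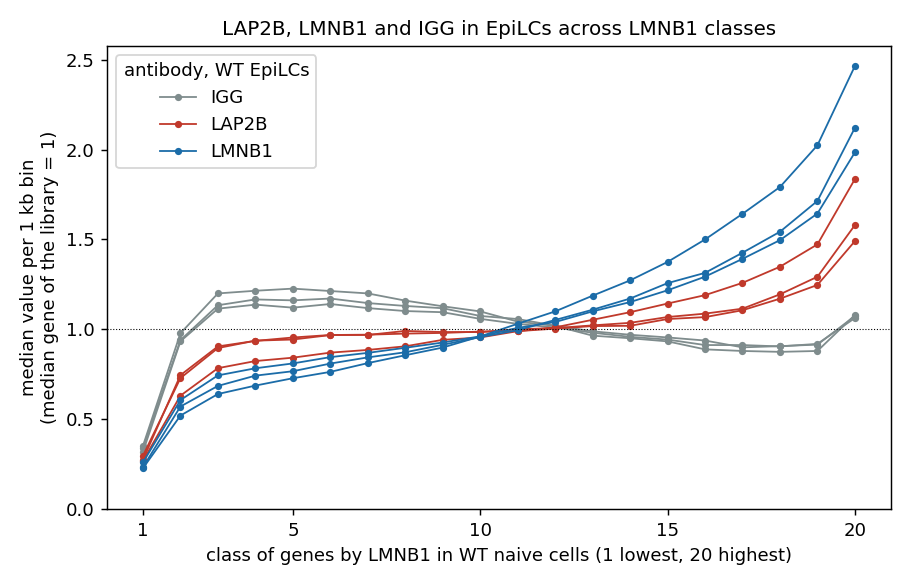
Median value per 1-kb bin (median gene of the library = 1) in WT EpiLC libraries of LMNB1, LAP2B and IGG, 1 line per library, across 20 classes of genes ordered by LMNB1 in WT naive cells. In class 20 the LMNB1 libraries reach 1.98 to 2.46, the LAP2B libraries 1.49 to 1.84 and IGG 1.06 to 1.08.

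Single genes were tested with limma on log2(value + 0.1), a scale that understates the change of low genes, over 70381 genes and with Benjamini-Hochberg adjustment. LAP2B was higher than LMNB1 at 172 genes (0.244% of those tested) and lower at 2360 genes (3.35%), together 3.6%. The model held both stages, and with the 6 EpiLC libraries alone limma called 1398 higher and 4975 lower, and with IGG added to these, 1693 higher and 4585 lower. edgeR on recovered reads called 199 higher and 2363 lower. Without a filter on low values limma called 0 of 78202 genes, with 13641 at an unadjusted p under 0.05. A pseudocount of 0.01 gave 86 higher and 1919 lower, and a pseudocount of 1 gave 421 higher and 2553 lower. The split depends on the scaling: dividing by the mean gene moved the median of all genes from -0.03 to 0.08 and gave 1292 higher and 1464 lower, and quantile normalisation gave 1562 higher and 3142 lower. The counts rest on single libraries. Without LAP2B replicate 2, LAP2B replicate 3 or LMNB1 replicate 2 of the EpiLCs limma called 0 genes, with 10905, 9801 and 8001 at an unadjusted p under 0.05, against 14269 with all libraries. It called 3995 without LAP2B EpiLC replicate 1, 871 and 1465 without LMNB1 EpiLC replicates 1 and 3, 1644 and 4264 without LAP2B naive replicates 1 and 2, and 5079, 3816 and 1417 without LMNB1 naive replicates 1, 2 and 3, against 2532 with all.

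By LMNB1 class the calls were as follows. The classes are of the antibody compared, in naive cells, so the counts are a description and their order is no independent result. In the most LMNB1-poor class 130 of 13676 genes were higher in LAP2B and 17 lower, with a median log2 difference of 0.26. In the most LMNB1-rich class 0 of 19532 genes were higher and 1971 lower by limma, with a median of -0.32. The classes between had 34 higher and 54 lower (median 0.12) and 8 higher and 315 lower (median -0.11). The sign of the class below the richest depended on the scaling, with a median of 0.03 when libraries were divided by the mean gene, and the signs of the other classes did not. Of the 172 genes higher in LAP2B, 164 (95.3%) lay in the lower 2 LMNB1 classes, against 44.9% of all tested genes with a class.

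In units of each library's median gene, median LAP2B at LMNB1-poor genes lay below IGG, and few single genes there were called above it. This compares places within libraries and does not put the amount of LAP2B below background. Before this division the spike-in scaled median gene was 3.05, 2.12 and 3.20 in LAP2B and 0.913, 1.92 and 0.718 in IGG. The methods name no scaling constant for IGG. LAP2B was higher than IGG at 8710 genes (12.4% of those tested) and lower at 4832 (6.87%), and LMNB1 was higher than IGG at 17738 (25.2%) and lower at 15522 (22.1%). Division by the mean gene gave 7137 higher and 10587 lower for LAP2B against IGG. The lower count rested on single libraries: 5203 genes were higher and 1521 lower without LAP2B replicate 1, 6211 and 2700 without IGG replicate 1, 7224 and 2718 without IGG replicate 2, and 8448 and 3192 without IGG replicate 3. These comparisons and that of LAP2B with LMNB1 share libraries, so their values are set side by side and not correlated. Of the 8710 genes with LAP2B above IGG, 6591 were in the most LMNB1-rich class, 1747 in the next, and 295 and 67 in the lower classes. LMNB1 was above IGG at 12009, 4655, 816 and 243 genes of the same classes.

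Of the 172 genes higher in LAP2B than in LMNB1, 28 had a fitted LAP2B value above IGG, 0 were called above IGG by limma and 41 were called below it. At 169 of them LMNB1 was called below IGG. Their median values were 5.00 in LAP2B, 3.10 in LMNB1 and 5.95 in IGG. Among the 2360 genes lower in LAP2B, 1684 were called above IGG and 8 below. Their median values were 7.61 in LAP2B, 11.6 in LMNB1 and 5.18 in IGG. The plot of both differences gene by gene shows the called groups.

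On values relative to the median gene, no gene was called above both LMNB1 and IGG by limma. The model of 12 libraries served for LMNB1 and that of 9 for IGG. At an unadjusted p under 0.05 in both comparisons there were 59 such genes, and at 279 genes (0.396%) all 3 LAP2B libraries lay above all LMNB1 and all IGG libraries. With both contrasts fitted in the 9 EpiLC libraries, a setting added after the values were seen, 1693 genes were above LMNB1, 561 of these were below IGG, and 1 gene passed both: Gm32050, a transcript of 0.737 kb. Its values were 1.38, 0.821 and 0.839 in LAP2B, 0.481, 0.549 and 0.400 in LMNB1, and 0.5, 0.349 and 0.565 in IGG. It was not a gene of the rule for named genes and was picked after its values were seen. With all 18 WT libraries in 1 model 532 genes were above LMNB1, 102 of these were below IGG, and 0 passed both.

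**Figure D3:**
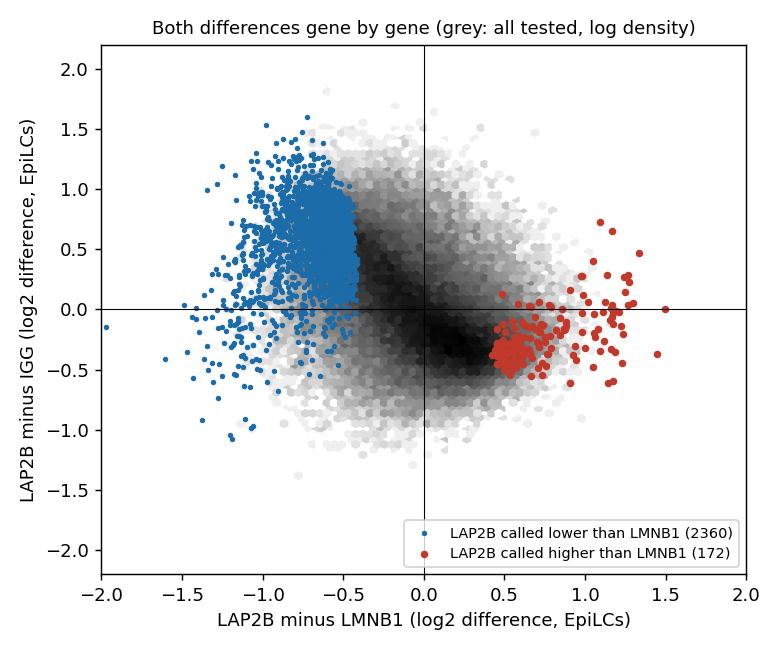
Log2 difference of LAP2B from LMNB1 (x axis) and from IGG (y axis) in WT EpiLCs for each tested gene, with all 70381 genes as grey density, the 2360 genes called lower in LAP2B in blue and the 172 called higher in red. Both axes share the LAP2B libraries, and 28 of the red and 2226 of the blue genes lie above 0 on the y axis.

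A description of each LAP2B library as a weighted sum of mean LMNB1 and mean IGG, added after the values were seen, gave LMNB1 71.9%, 52.0% and 48.4% of the summed weight in the EpiLC libraries. It was 72.3%, 90.9% and 66.3% in the naive LAP2B libraries. The stages overlapped, and the means of 57.4% ± 12.7 and 76.5% ± 12.8 (SD, n = 3 each) had an exact permutation p of 0.2 (two-sided). The sum described 62.5% to 65.6% of the variance across genes in EpiLCs.

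Named genes were the 12 with the largest difference in each direction among called protein-coding genes of at least 10 kb, with no overlap of libraries, a mean of at least 1 and at most 1 gene per 1-Mb window. The rule was met by 90 genes higher in LAP2B and 925 lower. All 12 named genes higher in LAP2B belonged to the most LMNB1-poor class, which holds 13676 of the 70315 tested genes with a class. Choice by the excess of LAP2B over LMNB1 favours genes low in LMNB1. Among the named genes outside the olfactory and vomeronasal receptor, zinc finger and Rbmy families, the 2 largest differences per direction were taken. The 250 bases before their annotated gene starts are shown, because the called groups differ in base composition. They were read from the GRCm39 genome with GENCODE gene starts, 5′ to 3′, with CG dinucleotides in capitals. The first pair was higher in LAP2B and the second lower.
Smarcd1 (chr15:99599741-99599990, plus strand): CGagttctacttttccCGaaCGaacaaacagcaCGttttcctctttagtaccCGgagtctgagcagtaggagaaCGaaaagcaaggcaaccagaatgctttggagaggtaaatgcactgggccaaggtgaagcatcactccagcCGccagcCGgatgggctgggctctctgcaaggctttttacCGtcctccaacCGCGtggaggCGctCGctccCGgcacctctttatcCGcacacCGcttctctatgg
Fbxo27 (chr7:28386663-28386912, plus strand): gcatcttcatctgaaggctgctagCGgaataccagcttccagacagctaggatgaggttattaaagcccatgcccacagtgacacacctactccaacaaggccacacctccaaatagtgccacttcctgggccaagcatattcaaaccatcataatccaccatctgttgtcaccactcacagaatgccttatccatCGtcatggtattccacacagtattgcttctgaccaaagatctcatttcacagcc
Lpar4 (chrX:105963956-105964205, plus strand): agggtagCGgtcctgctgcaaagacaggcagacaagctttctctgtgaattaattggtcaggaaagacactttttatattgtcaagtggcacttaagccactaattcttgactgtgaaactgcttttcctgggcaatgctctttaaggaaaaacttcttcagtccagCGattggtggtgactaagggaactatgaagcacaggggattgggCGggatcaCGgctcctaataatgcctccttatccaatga
Pdc (chr1:150194918-150195167, plus strand): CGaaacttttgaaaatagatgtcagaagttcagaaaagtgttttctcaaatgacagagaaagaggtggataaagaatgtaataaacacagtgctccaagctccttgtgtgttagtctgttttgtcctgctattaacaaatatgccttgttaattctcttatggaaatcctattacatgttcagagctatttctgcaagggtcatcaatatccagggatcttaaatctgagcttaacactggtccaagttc
The Smarcd1 stretch holds 16 CG, and 19.3% of the same windows of all protein-coding genes with coordinates, tested or not, hold as many or more. The Fbxo27 stretch holds 2, the Lpar4 stretch 4 and the Pdc stretch 1, and 92.0% of those windows hold at least as many as Pdc. The pairs therefore overlap, while over the groups the median was 8 CG for the 100 protein-coding genes higher in LAP2B, 3 for the 1186 lower and 6 for the 20867 tested. No CG was found before 1.0% of the higher genes, 18.9% of the lower genes and 7.73% of the tested genes. CG was counted on 1 strand, since it reads the same on both, and the counts describe these windows only.

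Smarcd1, a subunit of the SWI/SNF chromatin remodelling complexes (chr15:99599991-99611876), had values of 3.03, 3.73 and 4.27 in LAP2B, 2.52, 1.43 and 1.53 in LMNB1, and 4.84, 4.44 and 4.43 in IGG. LAP2B was above LMNB1 and below IGG in all libraries. The log2 difference from LMNB1 was 1.00 (SE 0.25, limma adjusted p = 0.029), and that from IGG was -0.32 (adjusted p = 0.22). Epha2, a receptor tyrosine kinase for ephrins (chr4:141028540-141056695), had 7.17, 7.79 and 8.25 in LAP2B, 4.32, 4.70 and 4.60 in LMNB1, and 10, 9.47 and 8.55 in IGG. The 3 antibodies again formed separate groups in the same order (log2 difference from LMNB1 0.75, SE 0.17, limma adjusted p = 0.0211). Rpl3, a protein of the large ribosomal subunit, had 4.05, 4.96 and 4.36 in LAP2B, 3.16, 2.01 and 2.53 in LMNB1, and 5.75, 5.67 and 5.28 in IGG, a log2 difference from LMNB1 of 0.79 (SE 0.19, limma adjusted p = 0.0244).

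The other named genes higher in LAP2B had different roles. Fbxo27 encodes an F-box substrate receptor, and its LAP2B values of 2.07, 1.54 and 1.88 stood above LMNB1 values of 0.649, 1.40 and 0.778 (log2 difference 0.94). Sf1, a splicing factor that binds the branch point, had 4.23, 4.04 and 3.64 against 2.32, 1.63 and 2.49 (0.87). Mettl23, a methyltransferase gene, and Lactbl1 differed by 0.93 and 0.88. Tas1r2, a subunit of the sweet taste receptor, differed by 0.77, the protein kinase gene Pkn3 by 0.76, and the lipid phosphatase-related gene Plppr3 by 0.74. Slc17a7, the vesicular glutamate transporter VGLUT1, and Neurl4 each differed by 0.73. The limma adjusted p of these 9 genes lay between 0.0227 (Lactbl1) and 0.0459 (Pkn3). Neurl4 and Pkn3 were called below IGG, by 0.54 and 0.47 on the log2 scale (limma adjusted p = 0.0145 and 0.0421), and no named gene of this group was called above it.

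Of the 12 named genes lower in LAP2B, 8 belonged to the most LMNB1-rich class, which holds 19532 of the 70315 tested genes with a class. Lpar4 and Pof1b, both on chromosome X, stood in the next class, and Zfp300 and Rbmyf8 in the one below it. The study gives the cells as XY, and the values behind the classes were not corrected for copy number. Pdc, phosducin of the retina (chr1:150195168-150209657), had 2.97, 2.87 and 3.05 in LAP2B, 6.73, 5.96 and 5.44 in LMNB1, and 2.22, 2.67 and 2.48 in IGG. LAP2B lay close to IGG and far below LMNB1 in all libraries (log2 difference from LMNB1 -1.0, SE 0.20, limma adjusted p = 0.0158). Pof1b, an actin-binding protein of epithelia (chrX:111548120-111608425), had 6.48, 6.06 and 6.18 in LAP2B, 10.8, 15.1 and 10.9 in LMNB1, and 4.28, 4.19 and 4.27 in IGG. Here LAP2B was above IGG in every library, by 0.54 on the log2 scale (limma adjusted p = 0.0036), and below LMNB1 by 0.95.

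Tmx3, a thioredoxin-related protein of the endoplasmic reticulum (chr18:90528235-90561734), had 11.4, 8.49 and 7.23 in LAP2B against 16, 21.6 and 15.4 in LMNB1 (log2 difference -0.97, SE 0.16, limma adjusted p = 0.0153). LAP2B replicate 1 was the nearest to LMNB1, as in the lamina contrast. Lpar4, a receptor for lysophosphatidic acid, had 1.90, 1.92 and 1.04 against 3.38, 3.83 and 2.91 (-1.06). The vomeronasal receptor genes Vmn2r70 and Vmn2r14 differed by -1.13 and -0.95, and the olfactory receptor genes Or6b9, Or4c15, Or8g27 and Or14c44 by -1.0, -1.0, -0.97 and -0.96. Zfp300, a zinc finger gene, differed by -1.01 and Rbmyf8, an RNA-binding protein gene with many copies on chromosome Y, by -0.93. Reads of the olfactory and vomeronasal receptor, zinc finger and Rbmy genes can be shared with near-identical copies, and their single values are uncertain.

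**Figure D4:**
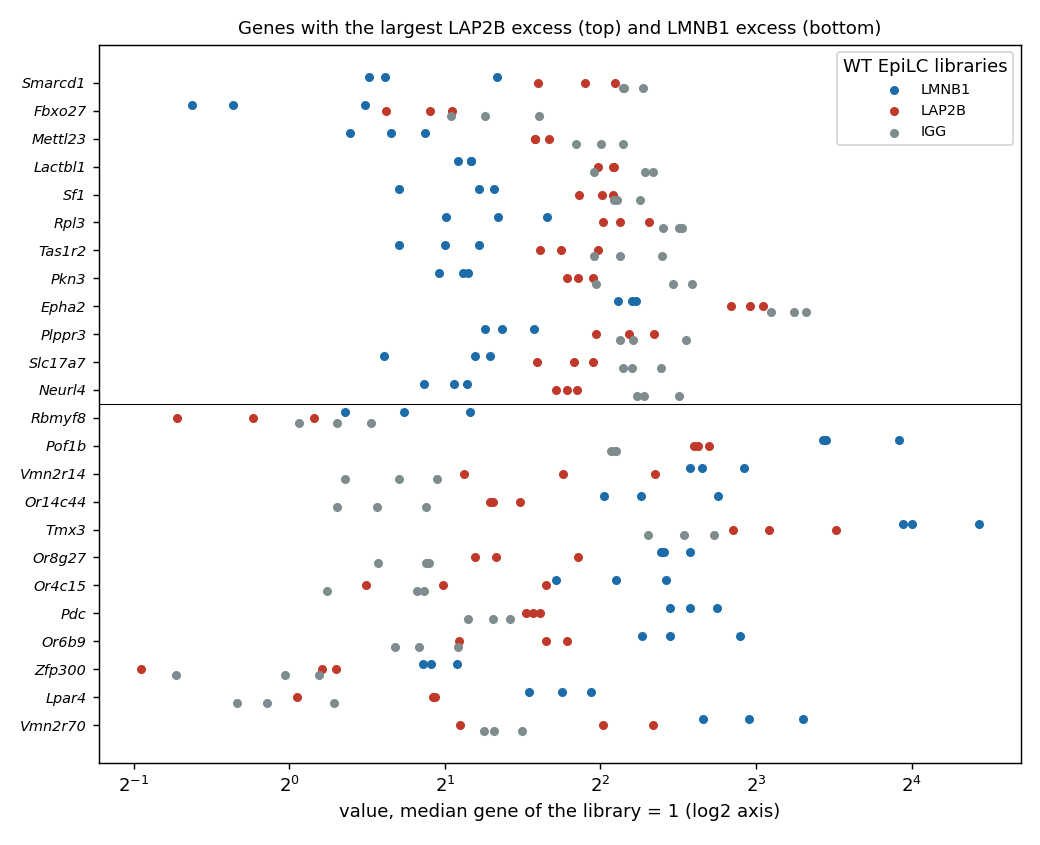
Values in each WT EpiLC library of LMNB1, LAP2B and IGG (median gene = 1, log2 axis) for the 12 named genes with the largest LAP2B excess (top) and the 12 with the largest LMNB1 excess (bottom). The rule for named genes required that LAP2B and LMNB1 points do not overlap. For Smarcd1 and Epha2 the LAP2B points lie between LMNB1 and IGG.

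Lists of genes were described by their counts and medians beside those over all tested genes, where limma called 0.244% higher and 3.35% lower and the median was -0.03. These shares cover genes of all lengths, and long genes were called more often. Of the 2360 lower genes 1866 were of at least 10 kb, against 26571 of all 70381 tested genes. Receptor gene families and long neuronal genes had the lowest medians. Of 1149 tested olfactory receptor genes 235 were lower and 0 higher, with a median log2 difference of -0.55, and of 259 vomeronasal receptor genes 88 were lower and 0 higher, with a median of -0.53. LAP2B was called above IGG at 569 and 165 of them, against 12.4% of all tested genes. Or5t9 had 1.40, 0.952 and 0.857 in LAP2B, 2.62, 3.45 and 2.00 in LMNB1, and 0.25, 0.302 and 0.806 in IGG (log2 difference from LMNB1 -1.25, SE 0.24, limma adjusted p = 0.0153). Vmn1r31 had 1.33, 1.14 and 1.45 in LAP2B and 2.60, 3.01 and 2.74 in LMNB1, with 1.06, 1.16 and 1.44 in IGG (-1.04). In both genes LAP2B and LMNB1 did not overlap, and only in Or5t9 did LAP2B lie above all IGG values. Or5t9 stood 1.19 above IGG on the log2 scale. The other olfactory receptor genes of the rule, Or8b51, Or12e14 and Or7e170, were called lower than LMNB1, at -1.40, -1.34 and -1.31, and differed from IGG by -0.19, 0.99 and -0.06, of which only Or12e14 was called (limma adjusted p = 0.0106). The vomeronasal receptor genes Vmn1r25 and Vmn1r15 were called lower than LMNB1, at -1.15 and -1.08, and differed from IGG by -0.16 and 0.08, without a call.

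Among 38 long neuronal genes, which encode mostly adhesion and synaptic proteins, 18 were lower, 0 higher, and the median was -0.48. It was -0.33 when libraries were divided by the mean gene and -0.06 after quantile normalisation. All 3 LAP2B libraries lay below all LMNB1 libraries at 33 of them, against a background of 17.2% of tested genes, and LAP2B was called above IGG at 35, against 12.4% of tested genes. These backgrounds were not matched for gene length. Csmd3, a large transmembrane protein with CUB and Sushi domains, had summed values of 272, 231 and 202 in LAP2B, 349, 434 and 321 in LMNB1, and 122.7, 150.3 and 157.0 in IGG. LAP2B lay between the others in every library (log2 difference from LMNB1 -0.65, SE 0.15, limma adjusted p = 0.0247). Cdh12, a cadherin, and Il1rapl1, a synaptic receptor protein, differed by -0.60 and -0.59.

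Ribosomal protein, housekeeping and Hox genes had medians above 0, but almost none of their members passed the test. Their median differences from IGG were -0.38, -0.28 and -0.37, with 1, 0 and 0 members called above IGG, and their median differences from LMNB1 in naive cells were -0.09, 0.03 and 0.14. Of 81 ribosomal protein genes Rpl3 was higher and 0 lower, with a median of 0.29, and all 3 LAP2B libraries lay above all LMNB1 libraries at 21 of them, against a background of 10.6%. Rps9 had 1.75, 1.76 and 2.21 in LAP2B and 1.14, 0.915 and 1.02 in LMNB1 (log2 difference 0.83, limma adjusted p = 0.0863), with IGG at 1.94, 1.67 and 1.95. The ribosomal protein gene with the largest difference was Rplp1, with 0.433, 0.488 and 0.482 in LAP2B, 0.351, 0.232 and 0.0889 in LMNB1 and 0.882, 1.02 and 0.519 in IGG. It differed by 0.90 from LMNB1 (limma adjusted p = 0.146) and by -0.63 from IGG, and Rpl13a by 0.75 and -0.34. Rps9 thus stood higher against IGG (0.03) than the median of its list. Of 24 housekeeping genes 0 were called, with a median of 0.34. Gapdh, a glycolytic enzyme, had 2.60, 2.46 and 2.18 against 1.79, 0.915 and 1.42 (0.81, limma adjusted p = 0.0601), and Pkm, pyruvate kinase, differed by 0.64 (adjusted p = 0.0514). Cfl1 and Hspa8 differed by 0.65 and 0.62 from LMNB1 and by -0.16 and -0.19 from IGG. Of 39 clustered Hox genes, the regulators of body axis identity, 0 were called, the median was 0.32 and 13 had no overlap above. Hoxa9 had 2.47, 2.46 and 2.68 against 1.62, 1.67 and 1.46 (0.65, limma adjusted p = 0.112). Hoxb7, Hoxa13 and Hoxa11 differed by 0.86, 0.76 and 0.66 from LMNB1 and by -0.37, -0.50 and -0.17 from IGG, without a call.

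Lists of related gene groups gave few calls. Of 23 tested replication-dependent histone genes, out of 68, 0 were called and the median was 0.51. Their values were low, as for H3c1 with 0.417, 0.726 and 0.554 in LAP2B and 0.221, 0.244 and 0.222 in LMNB1. H2ac25, H2bc11 and H2ac12 differed by 0.85, 0.81 and 0.76 from LMNB1 and by -0.75, -0.37 and -0.57 from IGG. Among 75 mitochondrial ribosome genes (median 0.16) Mrpl1 was lower, by 0.48 on the log2 scale (limma adjusted p = 0.0316), and was named after its values were seen. The largest differences of that list, at Mrpl49, Mrps12, Mrpl11 and Mrps15, were 0.84, 0.82, 0.74 and 0.64 from LMNB1 and -0.15, -0.25, -0.06 and -0.51 from IGG, without a call. Among 38 proteasome genes (median 0.11) Psmd14, a deubiquitinase of the proteasome lid, had 18.1, 17.9 and 15 against 22.1, 30.7 and 23.8 and was lower (-0.57, limma adjusted p = 0.0273). Mrpl1 and Psmd14 span 57.4 kb and 89.6 kb. Psmb10, Psmd10 and Psmb9 differed by 0.72, -0.70 and 0.57 from LMNB1 and by -0.28, 0.49 and -0.12 from IGG, without a call.

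Pluripotency and lineage genes were mostly not distinguishable between LAP2B and LMNB1. None of the 26 naive pluripotency factors (median 0.01), 12 shared pluripotency factors (0.37), 27 primed epiblast markers (0.13), 26 endoderm and mesoderm regulators (0.11) and 25 neural regulators (0.09) passed limma's test, in either direction. In the shared list Sall4 had 5.02, 5.20 and 4.16 in LAP2B and 3.81, 2.23 and 3.91 in LMNB1 (0.55, limma adjusted p = 0.0941). In the primed list Pou3f1, a POU factor, had 1.30, 0.917 and 1.77 against 0.857, 0.780 and 0.522 (0.78, adjusted p = 0.134), and Lin28b, an RNA-binding regulator of let-7, had 20.0, 19.2 and 17.6 against 25.0, 27.5 and 22.5 (-0.40, adjusted p = 0.0872). The neural factor gene Dlx2 had 1.43, 1.58 and 1.55 against 0.792, 0.439 and 1.11 (0.96, adjusted p = 0.0608). Tet2, a methylcytosine dioxygenase in the naive list, had 23.3, 19.6 and 20.2 against 23.1, 30.3 and 27.7 (-0.36, adjusted p = 0.0995), with overlap between the antibodies. The other genes of the rule were not called either. Among them Tbx3, Zfp42 and Fgf4 of the naive list differed by 0.47, -0.35 and 0.33 from LMNB1 and by -0.47, 0.31 and -0.35 from IGG. Utf1, Lin28a and Mycn of the shared list differed by 0.51, 0.48 and 0.43 from LMNB1 and by -0.26, -0.67 and -0.33 from IGG, with Lin28a called below IGG (limma adjusted p = 0.00261). The primed genes Nodal and Sox11 differed by 0.50 and 0.47 from LMNB1 and by -0.46 and -0.30 from IGG. Of the endoderm and mesoderm regulators Mesp1, Nkx2-5 and Mixl1 differed by 0.69, 0.60 and 0.48 from LMNB1 and by -0.17, -0.22 and 0.03 from IGG, and Isl1 differed by -0.47 from LMNB1 (adjusted p = 0.0961). The neural genes Neurog1 and Neurog3 differed by 0.84 and 0.56 from LMNB1 and by -0.38 and -0.24 from IGG. Over the 25 neural regulators, 16 were fitted above LMNB1 and 9 below.

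Of 22 germline genes (median -0.07, and 0.06 when divided by the mean gene) 2 were lower. Sycp3, a protein of the synaptonemal complex, had 2.50, 2.25 and 2.38 in LAP2B, 4.21, 4.32 and 3.37 in LMNB1 and 1.65, 1.58 and 3.06 in IGG (-0.71, SE 0.17, limma adjusted p = 0.0253). Dazl, an RNA-binding protein of germ cells, had 2.80, 2.42 and 2.54 against 4.25, 4.23 and 3.74 (-0.64, SE 0.18, limma adjusted p = 0.0396). LAP2B and LMNB1 did not overlap at either gene, and LAP2B was not called different from IGG. Sycp1 and Sycp2 differed by -0.46 and -0.40 from LMNB1, without a call. Of 21 H3K9 methylation genes 2 were lower, the methyltransferase Suv39h2 (-0.64, limma adjusted p = 0.033) and the demethylase Kdm4c (-0.49, adjusted p = 0.0437), with a median of 0.09 for the list. Suv39h2 was also below IGG, by 0.55 on the log2 scale (adjusted p = 0.0195), whereas Kdm4c was above it by 0.46 (adjusted p = 0.00262). Setdb2 and Cbx1 differed by -0.41 and 0.56 from LMNB1 and by 0.31 and -0.31 from IGG, without a call.

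None of 26 nuclear envelope genes passed limma's test (median 0.10). Lmna, lamin A/C, came nearest, with 8.25, 9.81 and 9.36 in LAP2B, 6.09, 4.62 and 5.97 in LMNB1 and 18.3, 13.1 and 10.2 in IGG (log2 difference from LMNB1 0.71, SE 0.22, limma adjusted p = 0.0584). Lemd2 and Prr14 differed by 0.79 and 0.51 from LMNB1 and by -0.19 each from IGG. The gene of LAP2B itself, Tmpo, had 6.92, 7.39 and 6.20 against 7.51, 8.35 and 7.58 (-0.19, adjusted p = 0.419), and that of the lamin B receptor, Lbr, 5.12, 5.64 and 5.25 against 5.26, 5.02 and 5.66 (0.01, adjusted p = 0.986). These are levels of antibody signal over the genes and say nothing of their expression.

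The remaining lists were mixed. Of 344 zinc finger genes named Zfp, 28 were lower, Zfp957, named after its values were seen, was higher (0.49, limma adjusted p = 0.0402), and the median was -0.01. Zfp40 and Zfp983 each differed by -0.70, and Zfp740 by 0.69 without a call (limma adjusted p = 0.0605). Of 72 Cyp2, Cyp3 and Cyp4 genes, which encode liver-type cytochrome P450 enzymes, 12 were lower and 0 higher, with a median of -0.24. Cyp2j7 had 12.5, 9.93 and 9.16 in LAP2B, 18.1, 20.9 and 15.9 in LMNB1 and 5.71, 6.53 and 7.29 in IGG, so that LAP2B lay between the others (-0.80, SE 0.14, limma adjusted p = 0.0153). Cyp4a10, Cyp2j12 and Cyp2j5 were called lower than LMNB1, at -0.79, -0.61 and -0.58, and differed from IGG by 0.40, 0.58 and 0.86. Of 69 defensin genes Defb41, named after its values were seen, was lower (-0.69, adjusted p = 0.033) and the median was -0.20. The largest differences, at Defa33, Defb21, Defa39 and Defa32, were -0.91, 0.79, -0.71 and -0.70, without a call. Of 58 clustered protocadherin genes and 90 keratin-associated protein genes 0 were called, with medians of -0.04 and -0.09 that became 0.09 and 0.01 when libraries were divided by the mean gene. The median of the Zfp genes became 0.13 under that scaling and 0.01 after quantile normalisation. All LAP2B libraries lay above all LMNB1 libraries at 21 of the protocadherin genes and below at 15, against backgrounds of 10.6% and 17.2%. Pcdhb9 had 0.750, 0.643 and 0.679 against 0.961, 1.05 and 1.01, and Krtap13-24 0.233, 0.5 and 0.339 against 0.818, 0.939 and 0.700, both at low values and without a call. Pcdhb2, Pcdhb13 and Pcdhb5 differed by -0.33, -0.33 and -0.31, and Krtap31-1, Krtap6-7 and Krtap19-3 by 0.95, -0.92 and -0.88, none of them called.

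Base composition moved with the difference. In the lowest of 10 equal classes by GC content (median 36.9%) the median log2 difference was -0.47, and 1605 of 7032 genes were lower and 0 higher. In the highest (median 55.7%) it was 0.21, with 2 lower and 34 higher. The median value per bin in the lowest class was 1.15, 0.998 and 0.929 in LAP2B, 1.37, 1.71 and 1.34 in LMNB1 and 0.640, 0.716 and 0.739 in IGG. LAP2B lay between the other antibodies there in all libraries. In the highest class it was 1.18, 1.24 and 1.44 in LAP2B, 1.09, 1.00 and 1.17 in LMNB1 and 1.86, 1.52 and 1.44 in IGG.

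The trend also ran within LMNB1 classes. From the lowest to the highest of 4 GC classes the median difference went from -0.05 to 0.34 in the most LMNB1-poor class and from -0.45 to -0.12 in the most LMNB1-rich class. The 172 genes higher in LAP2B had a median GC of 50.7% and the 2360 lower genes 37.5%, against 45.2% for all tested genes. The part of base composition in the difference between LAP2B and LMNB1 was not tested.

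Windows along the chromosomes were compared in the same way. Of 2661 windows of 1 Mb with at least 3 genes, 89 (3.34%) were higher in LAP2B and 412 (15.5%) lower by limma. The split was not stable, with 320 higher and 451 lower at a pseudocount of 1, and 192 and 361 of 1348 windows of 2 Mb. The largest excess was at chr11:116000001-117000000, with 30 protein-coding genes, among them Mettl23. Its values were 0.903, 1.06 and 1.14 in LAP2B, 0.757, 0.533 and 0.652 in LMNB1 and 1.80, 1.45 and 1.41 in IGG, a log2 difference from LMNB1 of 0.61 (SE 0.17, limma adjusted p = 0.0388). LAP2B lay above LMNB1 and below IGG in all libraries. The next were chr15:79000001-80000000, with Sun2 and Sox10 (0.57), chr4:140000001-141000000 and chr4:139000001-140000000 (0.56 and 0.55) and chr5:121000001-122000000 (0.55). The longest run of adjacent higher windows was chr4:138000001-142000000, which holds Epha2 and Tas1r2.

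The lowest window was chr2:86000001-87000000, in which all 50 protein-coding genes are olfactory receptor genes. It had 1.21, 1.02 and 0.959 in LAP2B, 1.65, 1.99 and 1.51 in LMNB1 and 0.608, 0.726 and 0.739 in IGG (log2 difference from LMNB1 -0.64, SE 0.14, limma adjusted p = 0.0255). A second such cluster at chr2:88000001-89000000 differed by -0.59, as did chr7:86000001-87000000, where 16 of 18 protein-coding genes are olfactory or vomeronasal receptor genes. The windows chr3:158000001-159000000 (-0.59) and chr1:142000001-143000000 (-0.58) hold no protein-coding gene. The longest run of adjacent lower windows, 7 in all, was chr1:137000001-144000000. By whole chromosomes, the median gene difference was highest on chromosome 11 (0.14) and lowest on X (-0.21), with libraries divided by the median gene, and the mean gene would raise the median of all genes by 0.11. The median gene of chromosome 8 stood at 1.43, 1.46 and 1.49 in LAP2B and 1.43, 1.42 and 1.44 in LMNB1, and that of chromosome Y at 0.293, 0.271 and 0.279 and at 0.304, 0.325 and 0.284. Chromosome X stood at 0.590, 0.535 and 0.543 in LAP2B and 0.632, 0.750 and 0.657 in LMNB1. Chromosome 6 stood at 1.22, 1.18 and 1.19 in LAP2B and 1.24, 1.34 and 1.29 in LMNB1. The part of the mixed karyotype in these differences was not tested. Without LAP2B EpiLC replicate 2 limma called 0 windows, without LAP2B replicate 3 or LMNB1 replicate 2 it called 3, without LMNB1 replicate 3 it called 136 and without LAP2B replicate 1 it called 940. Without LAP2B naive replicates 1 and 2 it called 260 and 809, and without LMNB1 naive replicates 1 and 3 it called 903 (374 higher, 529 lower) and 178 (6 higher, 172 lower), against 501 with all.

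No single TE family passed limma's test over all 1241 families (0.0% called). At an unadjusted p under 0.05 there were 202 higher and 197 lower, and the smallest adjusted p was 0.0586. Over the 936 families with at least 100 copies, an alternative filter, 66 (7.05%) were higher and 78 (8.33%) lower. LAP2B was above IGG at 248 families (20.0% of all) and below at 179 (14.4%). TE values average over copies, and per the methods the signal was read in bins much longer than most copies, so neighbouring DNA enters them.

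SINEs, short elements that lie mostly in gene-rich DNA, were placed higher in LAP2B than in LMNB1. At 33 of 34 SINE families all LAP2B libraries lay above all LMNB1 libraries, against a background of 21.7%, and 24 were called over the families with at least 100 copies. The median SINE family stood at 0.853, 0.903 and 0.896 in LAP2B, 0.831, 0.760 and 0.801 in LMNB1 and 1.05, 1.03 and 1.02 in IGG. LAP2B was below IGG at 33 of the 34 and above it at 0 by limma. The median SINE difference of 0.13 turned to -0.06 when libraries were divided by the median gene instead of the median family, a change that moved the median of all families by -0.17. PB1, an Alu-related family with 11756 copies, had 1.16, 1.23 and 1.29 in LAP2B, 1.09, 0.953 and 1.00 in LMNB1 and 1.49, 1.67 and 1.35 in IGG (log2 difference from LMNB1 0.25, SE 0.06, limma adjusted p = 0.0406 over families of at least 100 copies), or 0.03 under the median gene. B2_Mm1a, PB1D9 and MIR1_Amn differed by 0.19, 0.18 and 0.17, and by -0.01, -0.02 and -0.03 under the median gene.

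L1 elements, long retrotransposons that are frequent in lamina-associated domains, had the opposite sign. Of 142 L1 families with at least 100 copies 51 were called lower and 0 higher, and 72 of all 149 had all LAP2B libraries below all LMNB1 libraries, against a background of 17.3%. The median L1 family stood at 0.999, 0.988 and 0.957 in LAP2B, 1.05, 1.06 and 1.02 in LMNB1 and 0.942, 0.974 and 0.990 in IGG. LAP2B lay below LMNB1 in all libraries and overlapped with IGG. L1_Mur2, with 19681 copies, had 1.31, 1.22 and 1.21 in LAP2B, 1.41, 1.52 and 1.41 in LMNB1 and 0.960, 1.02 and 1.03 in IGG (-0.20, SE 0.05, limma adjusted p = 0.0406 over families of at least 100 copies). L1_Mur1, L1_Mur3, L1VL1 and Lx6 differed by -0.19, -0.19, -0.19 and -0.18, and all 5 were above IGG. Under the median gene these 5 differed by -0.33 to -0.36.

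Of 531 LTR families with at least 100 copies 18 were called higher and 25 lower. Of 183 such DNA element families 18 were called higher and 1 lower. Over all 936 such families the shares were 7.05% higher and 8.33% lower. These splits are relative to the median family, and under the median gene the medians of both classes were below 0, at -0.16 and -0.15. The LTR families MER67D, RMER6-int and RLTR22_Mur were lower in LAP2B than in LMNB1 (-0.23, -0.22 and -0.20) and above IGG. The LTR family RMER13A1 had 2.31, 2.22 and 2.39 in LAP2B against 2.12, 1.92 and 1.96 in LMNB1 (0.20, or -0.02 under the median gene), with IGG at 2.40, 2.71 and 2.08. The hAT families FordPrefect, MER91C and MER91A differed by 0.32, 0.21 and 0.20, or by 0.09, 0.00 and -0.01 under the median gene. FordPrefect stood far lower in both antibodies than in IGG, at 1.97, 2.00 and 2.35 in LAP2B, 1.75, 1.49 and 1.77 in LMNB1 and 10.9, 3.74 and 5.44 in IGG. Of the 66 families higher in LAP2B, 1 was also called above IGG: Arthur1C, a hAT family with 143 copies that differed by 0.08 from LMNB1 and 0.06 from IGG, and by -0.10 from LMNB1 under the median gene. Arthur1C was named after its values were seen.

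**Figure D5:**
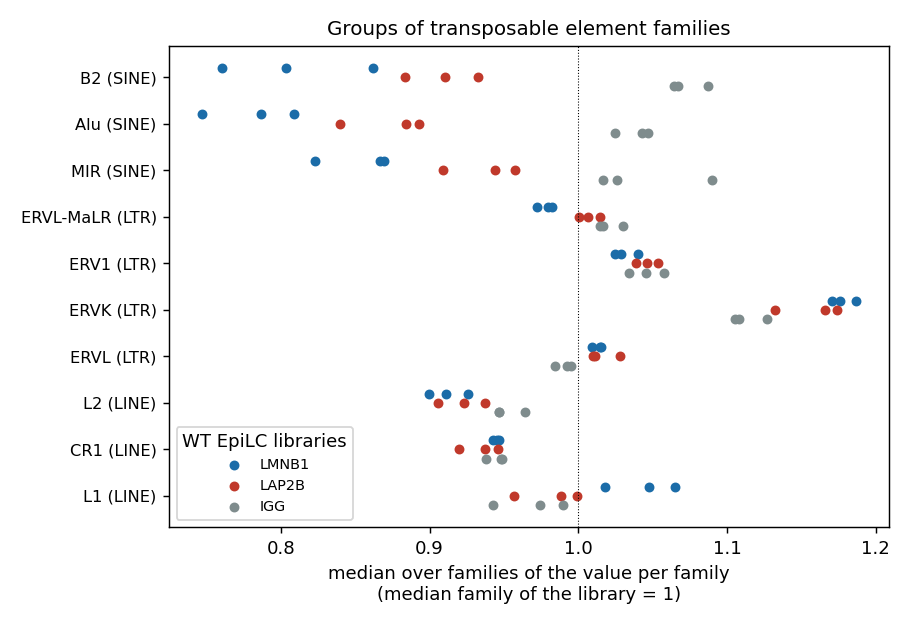
Median over the families of each TE group (median family of the library = 1) in WT EpiLC libraries of LMNB1, LAP2B and IGG, 1 point per library. The Alu, B2 and MIR groups of SINEs lie higher in LAP2B than in LMNB1 under this scaling (the SINE difference of 0.13 becomes -0.06 under the median gene) and below IGG, and the L1 group lies lower in LAP2B than in LMNB1.

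No gene, TE family or window passed the test for a difference between the stages in the distance of LAP2B from LMNB1, except 1 family (EUTREP6, 4 copies, named after its values were seen) when TE values were divided by the median gene. With 3 libraries per group this does not show that the stages were alike. limma called 0 of 70381 genes for the stage difference (0.0%), with 2764 at an unadjusted p under 0.05, and edgeR called 0, with 2619. Of the TE families 0 were called (0.0%), with 69 at an unadjusted p under 0.05, and of the windows 0, with 144. In naive cells alone 1 gene (0.00142%) was called between LAP2B and LMNB1, Gm50200, a transcript of 0.27 kb that was higher in LAP2B by 1.72 on the log2 scale (limma adjusted p = 0.0131) and was named after its values were seen. Of the TE families 3 (0.242%) were called in naive cells, all higher in LAP2B and named after their values were seen: LTR33A, MER54B and RMER6A differed by 0.11, 0.16 and 0.21 on the log2 scale (limma adjusted p = 0.0443 each), and by 0.11, 0.05 and 0.08 in EpiLCs, which became -0.08, -0.13 and -0.12 under the median gene. The naive difference had the same sign as the EpiLC difference at 161 of the 172 higher genes (93.6%) and at 2323 of the 2360 lower genes (98.4%), against 68.7% of all tested genes. Both stages share 1 estimate of the spread in this fit. Smarcd1 and Epha2 differed by 0.71 and 0.22 in naive cells and Pdc and Csmd3 by -0.59 and -0.43.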

How the data were processed

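CUT&RUN signal was analysed for 18 wild-type libraries: LAP2B, LMNB1 and IGG in EpiLCs and naive cells, 3 each. Per the submitters' processing notes, the tools were Bowtie2 2.3.5.1, SAMtools 1.10 and deepTools, with builds mm39 and sacCer3. The authors deposited signal values: coverage scaled to a yeast spike-in, read in 1-kb bins and summed over the bins that a gene touches, with no pooling of replicates. The constant of the LMNB1 table is not given in the sources used here, and each library was divided by its median, which cancels it and any global change in amount. All values were whole multiples of the value of 1 read (tolerance 0.05), and edgeR was run on these recovered reads as an alternative. The lowest 0.1 of genes was left out of the tests of single genes. The genome-wide measures, TE families and windows had no such filter.

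Differences were tested on log2(value + 0.1) with limma 3.58.1 in R 4.3.3, in 1 model of the 12 LAP2B and LMNB1 libraries of both stages, and for IGG in the 9 EpiLC libraries, with Benjamini-Hochberg adjustment and a threshold of 0.05. edgeR 4.0.16 was used for the alternative, and Python 3.11.15 with NumPy 2.4.6, pandas 2.3.3, SciPy 1.17.1 and matplotlib 3.10.9 for the rest. The limma and edgeR steps were run on simulated data, with genes drawn independently, the same dispersion for all and no shift shared within a library. That setting lacks the differences between libraries on which the counts of called genes rest, so it does not test those counts. Library measures were compared by exact permutation. Gene coordinates came from GENCODE on GRCm39. Genes that touch the same bins share signal (343 sets share 1 bin).

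Named genes were the 12 with the largest difference per direction among called protein-coding genes of at least 10 kb, without overlap of libraries, with a mean of at least 1 in the higher antibody, without Gm or Rik names and at most 1 per 1-Mb window, plus up to 4 members per list with the largest difference and Tmpo, Lbr and Lmna. TE families needed 100 copies (8 per direction), and 5 windows were named per direction. The members and lists were chosen with earlier results of these data known. The 18 LAP2B libraries of mutant cells, the H3K9me3 samples and a table of the authors' modified z-scores were not used here. Alternatives covered scaling, pseudocount, filters, model, classes and single libraries. Of the genes that the rule names, 1 of the long neuronal list and 1 of the neural regulators are not reported here.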

Additional observations from a re-analysis of the deposited data

How the results depend on the processing

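With classes and reference from LAP2B, chosen after seeing the data, the LAP2B minus LMNB1 difference was -0.09 in lamina contrast, 1.36 percentage points in share and 0.0103 in rho, which turned its sign. The directions held under the other alternatives tried for them: leaving out 1 library moved the LAP2B minus LMNB1 difference in lamina contrast between -0.52 and -0.28, in share between 3.43 and 6.00 percentage points and in rho between -0.22 and -0.14. The stage difference in contrast was 0.0232 when values were not divided by bins and -0.20 to 0.13 when 1 library was left out. The number of called genes was not stable: 2532 became 0 without a filter (13641 at an unadjusted p under 0.05), 4704 with quantile normalisation, 6373 with the 6 EpiLC libraries alone and 0 to 5079 when 1 library was left out. For LAP2B against IGG 6724 to 14151 genes were called when 1 library was left out. Called TE families went from 0 to 1 with the median gene (EUTREP6, 4 copies, named after its values were seen, also 1 for the stage difference), to 144 with families of at least 100 copies and 0 to 144 when 1 library was left out. The 501 called windows became 771 with a pseudocount of 1 and 0 to 940 when 1 library was left out. Genes called above both LMNB1 and IGG numbered 1 in the 9 EpiLC libraries, 8 with the mean gene, 4 with a pseudocount of 1, 1 with quantile normalisation and 0 with all 18 WT libraries, settings chosen after seeing the data. The cause of these changes was not tested.

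Deviations of same-numbered LAP2B and LMNB1 libraries correlated at -0.11, -0.06 and 0.10, so the numbers were not taken to pair the samples. With the replicate block limma called 305 genes (1 higher, 304 lower) and 0 windows, and the genome-wide measures kept their values at an exact p of 0.25. For the named genes, families and windows, 1066 alternative values of the difference from LMNB1 kept their side of the threshold, 74 passed it newly and 98 no longer passed it, and 1343, 41 and 248 did so when 1 library was left out. Depth of 56 to 90 reads for the median gene limits single short genes.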
